A study of Mus musculus with 88 samples.

Results

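The Tcl1 cluster is a group of 6 listed genes on mouse chromosome 12, Tcl1 and its relatives Tcl1b1, Tcl1b2, Tcl1b3, Tcl1b4 and Tcl1b5. Each gene was looked up among the 38540 features of the count table by its name in the study's gene list, and otherwise by the best overlap with an annotated gene on the same strand. A feature of its own was found for 4 of the 6 genes, Tcl1, Tcl1b2, Tcl1b3 and Tcl1b4. Tcl1b1 and Tcl1b5 had none, because 1 long feature, named Tcl1b2, ran across the spans of Tcl1b2, Tcl1b1 and Tcl1b5 together. It is called the Tcl1b2 feature here, and its counts can come from any of the 3 genes.

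RNA was measured in single fully grown germinal vesicle (GV) oocytes from virgin C57BL/6Babr females, as the transcriptome part of scM&T-seq, a method that reads RNA and DNA methylation of the same cell. Young oocytes (42) came from 3 mice aged 12 weeks and old oocytes (45 with a configuration) from 7 mice aged 44 to 54 weeks. The labels name no engineered allele and no treatment. The study's authors predicted from transcripts of these same libraries whether the chromatin of each oocyte was in the non-surrounded nucleolus (NSN) or in the more mature surrounded nucleolus (SN) configuration, which gave 30 young NSN, 12 young SN, 37 old NSN and 8 old SN oocytes, so that configuration is not a measure independent of the RNA values. Since no source says which oocytes share a mouse, each age group counts as 1 sample, and differences have no replicate check and no p-value. SDs describe the spread over oocytes, and 95% intervals cover counting error only.

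Young libraries held 1579196 to 8231046 counts and old libraries 976456 to 5448310, so the old libraries were shallower. The oocyte markers fitted the label, since all 9 of 11 listed markers that had a feature had counts in each of the 87 oocytes, with a summed level of 7459 to 23292 CPM (counts per 1000000 counts of the library). The granulosa cell markers, which would mark adhering follicle cells, summed to 27.3 to 134 CPM over the 10 of 11 with a feature, none of them at 0 in all oocytes. Of these markers, 3 averaged at least 10 counts per oocyte, Nr5a2, Kitl and Inha. Nr5a2 and Kitl had counts in all 87 oocytes. Nr5a2 had 26.2 CPM in young and 25.8 in old, and Kitl 12.1 and 11.3. Foxl2 and Amh had counts in 6 and 13 oocytes, at 0.113 CPM or less in either age group. Inha had counts in 75 oocytes, at 6.43 CPM in young and 5.20 in old. Log2 ratios for old over young were -0.31 for Inha, -0.09 for Kitl and -0.02 for Nr5a2. For SN over NSN they were -0.52, 0.24 and -0.16 in young and -0.08, 0.80 and -0.07 in old oocytes. Inhba, with counts in 43 oocytes, had 1.15 for old over young. The part of these markers in the results below was not tested. In 1 further old oocyte, which has no predicted configuration, Tcl1 had 4395 CPM, against at most 2654 CPM in the other old oocytes. This oocyte is taken to be the one that the paper excluded, without naming it, as an outlier in a distance matrix. It is left out unless named.

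TCL1 proteins are small binding partners of the kinase AKT. They attach to its pleckstrin homology domain and favour its activation, and human TCL1A is known as an oncogene in T cell leukaemia, where a chromosome rearrangement switches it on. In the mouse, Tcl1 transcripts are abundant in the egg, and Tcl1 belongs to the maternal effect genes, since embryos of females without it cleave poorly. The Tcl1b genes are tandem relatives whose separate roles are less well known.

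In the GENCODE M21 annotation of the GRCm38 genome, Tcl1 lies on the minus strand at chr12:105216750-105222793, and the Tcl1b genes lie on the plus strand in the order Tcl1b2 (chr12:105146014-105155225), Tcl1b1 (chr12:105159690-105166625), Tcl1b5 (chr12:105176344-105181145), Tcl1b3 (chr12:105191043-105195612) and Tcl1b4 (chr12:105201957-105206993). The counted features were longer than the genes. The Tcl1 feature reached 27398 bases upstream of the annotated start of Tcl1. The Tcl1b2 feature spanned 50052 bases and began 14922 bases before Tcl1b2. The features of Tcl1b3 and Tcl1b4 began 539 and 2439 bases before their genes. Features on the opposite strand overlapped only the Tcl1 and Tcl1b2 features, with 0.1% and 0.309% as many counts.

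**Figure D1:**
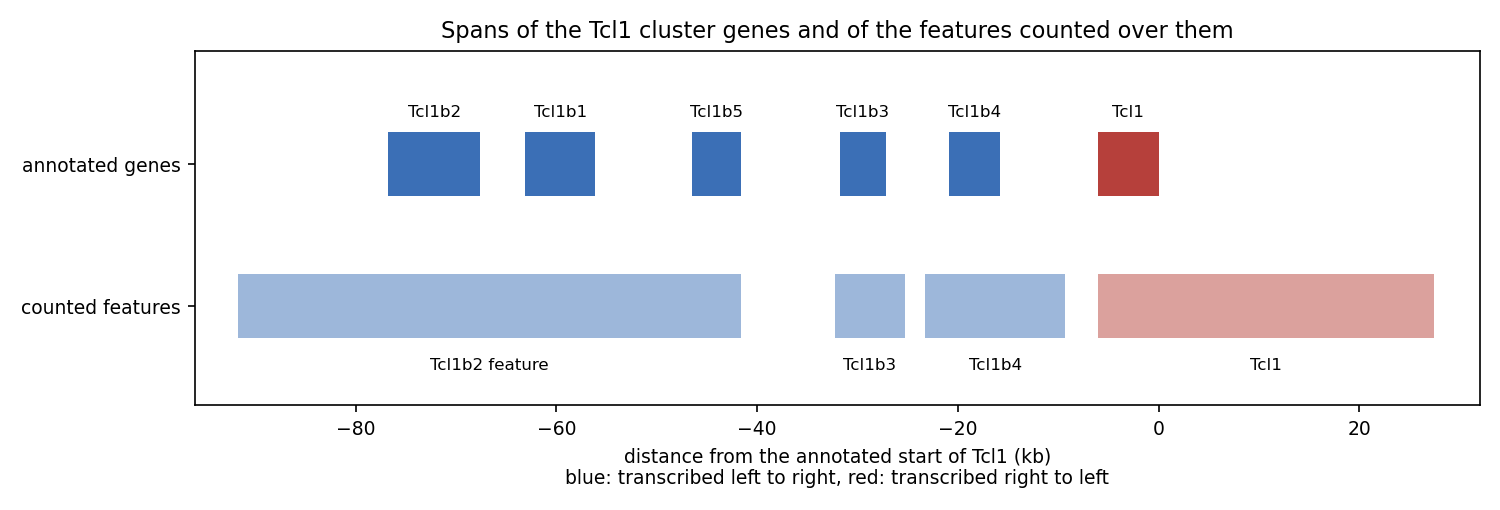
Spans of the 6 annotated genes (upper row) and of the 4 counted features (lower row), by distance in kb from the annotated start of Tcl1, with blue for the plus and red for the minus strand. The Tcl1b2 feature lies across 3 genes, and the Tcl1 feature extends 27398 bases beyond the start of its gene.

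The sequences before the RefSeq start sites show how alike the Tcl1b genes are there, and how unlike Tcl1. Printed 5′ to 3′ from GRCm38.p6, each begins 150 bases before the start and stops at the first base that GENCODE places in a transcript's untranslated region. For Tcl1b4 GENCODE places the whole stretch in such a region, so it is not printed. Capitals mark runs of at least 20 bases that were shared without a mismatch by the 250 bases before the start of all 5 Tcl1b genes, where the whole run lies in the printed stretch. A run that the stretch cuts off, as at the left end of Tcl1b1, Tcl1b2 and Tcl1b5, stays in lower case.
Tcl1 (chr12:105222794-105222887, minus strand): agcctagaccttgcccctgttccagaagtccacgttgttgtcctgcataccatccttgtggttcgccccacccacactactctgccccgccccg
Tcl1b1 (chr12:105159554-105159689, plus strand): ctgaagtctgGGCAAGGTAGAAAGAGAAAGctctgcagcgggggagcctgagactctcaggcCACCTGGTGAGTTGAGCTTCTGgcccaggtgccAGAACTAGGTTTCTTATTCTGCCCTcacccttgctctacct
Tcl1b2 (chr12:105146869-105147018, plus strand): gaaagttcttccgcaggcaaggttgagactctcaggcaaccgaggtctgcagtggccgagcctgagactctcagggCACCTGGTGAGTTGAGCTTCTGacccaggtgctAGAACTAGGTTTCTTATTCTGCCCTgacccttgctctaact
Tcl1b3 (chr12:105190895-105191042, plus strand): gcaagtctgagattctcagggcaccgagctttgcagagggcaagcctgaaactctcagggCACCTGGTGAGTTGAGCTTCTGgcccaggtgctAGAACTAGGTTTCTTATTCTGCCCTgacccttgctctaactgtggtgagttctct
Tcl1b5 (chr12:105176194-105176343, plus strand): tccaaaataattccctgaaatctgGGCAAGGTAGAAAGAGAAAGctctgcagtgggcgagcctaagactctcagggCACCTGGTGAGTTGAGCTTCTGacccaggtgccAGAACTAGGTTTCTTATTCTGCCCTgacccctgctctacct

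There were 4 such runs in the 250 bases, of 25, 20, 22 and 25 bases, and each was found, on either strand, in 5 of 32851 RefSeq windows of the same length, those of the 5 Tcl1b genes. Aligned end to end, these windows were 55% to 89.3% identical between Tcl1b genes and 44.2% to 47.7% between Tcl1 and a Tcl1b gene. The Tcl1 window held 57.6% G and C and 7 CG dinucleotides, against 50.4% to 53.2% and 1 to 3 in the Tcl1b windows, with a median of 52.4% over all windows. The TATA letters TATAAA were in none of the 6 windows and in 12.4% of all windows. The E-box letters CANNTG were in 6 of 6, against 66.2% of all. The counted features began upstream of every one of these starts, so that the starts used in these oocytes may be others.

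Likeness of the transcripts, which affects the counts, did not follow that of the windows in every pair. Transcripts were 56.5% to 91.15% identical between Tcl1b genes and 45.1% to 47.1% between Tcl1 and a Tcl1b gene. Tcl1b2 and Tcl1b4 had the most alike windows (89.35%) but 59.8% identity of transcripts. For Tcl1b2 and Tcl1b3 the values were 61.6% and 86.3%. Reads were 100 bases long. Of all 100-base stretches of the longest annotated coding transcript, 0% in Tcl1 and Tcl1b4 occurred identically in a transcript of another cluster gene, against 0.106% in Tcl1b1, 9.23% in Tcl1b2, 9.09% in Tcl1b3 and 1.46% in Tcl1b5. Counts of the Tcl1b2 feature and of Tcl1b3 are therefore uncertain to that extent, and those of Tcl1 and Tcl1b4 are not affected by a cluster gene in this way.

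All 4 features were abundant in every oocyte. The lowest count of any of them in any oocyte was 185, and together they took 0.393% of all counts. Tcl1 had the most, with 1996 CPM over all 87 oocytes, followed by the Tcl1b2 feature with 1422 CPM. Tcl1b3 and Tcl1b4 were lower and close together, at 259.9 and 252 CPM. Per kb of annotated exon, the scale on which genes of different length can be set side by side, Tcl1 had 1082 CPM and stood at rank 26 of 16130 features. The Tcl1b2 feature had 424 CPM per kb (rank 76) over the exons of its 3 genes and would have 1131 CPM per kb (rank 24) if all of its reads came from Tcl1b2. Tcl1b3 followed with 249 CPM per kb (rank 149) and Tcl1b4 with 169 CPM per kb (rank 225).

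The paper names Tcl1 among the maternal effect genes near the top of its ranking of transcripts that change across 4 oocyte clusters. Those clusters were formed from the transcriptome and are not the 4 groups of age and configuration compared here. Between these groups, Tcl1 differed little. In young NSN oocytes it ranged from 1264 to 2475 CPM (median 2055), and in young SN oocytes from 1132 to 2096 CPM (median 1767). In old NSN oocytes it ranged from 1265 to 2654 CPM (median 2125), and in old SN oocytes from 1384 to 2317 CPM (median 1773). The ranges of all 4 groups overlapped, and the SN medians were the lower ones at both ages.

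The Tcl1b2 feature separated the configurations more clearly. It ranged from 1117 to 1797 CPM (median 1425) in young NSN and from 1072 to 1382 CPM (median 1235) in young SN oocytes. In old NSN oocytes it ranged from 1043 to 2117 CPM (median 1493), and in old SN oocytes from 1075 to 1298 CPM (median 1172). Each of the 12 young and 8 old SN oocytes lay below the NSN median of its age. Above the highest SN oocyte of their age lay 34 of the 37 old but only 18 of the 30 young NSN oocytes.

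Tcl1b3 showed the same order. Its levels were 203 to 344 CPM (median 263) in young NSN, 161 to 243 CPM (median 219) in young SN, 159 to 419.9 CPM (median 294) in old NSN and 192 to 241 CPM (median 212) in old SN oocytes. All 20 SN oocytes were again under the NSN median of their age, and 24 of 30 young and 28 of 37 old NSN oocytes were above the highest SN oocyte of that age.

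Tcl1b4 overlapped between all groups. It ranged from 156 to 386 CPM (median 257) in young NSN, from 202 to 312 CPM (median 223) in young SN, from 186 to 386 CPM (median 269) in old NSN and from 184 to 277 CPM (median 222) in old SN oocytes. Of the SN oocytes, 2 of 12 young and 2 of 8 old ones lay above the NSN median of their age.

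**Figure D2:**
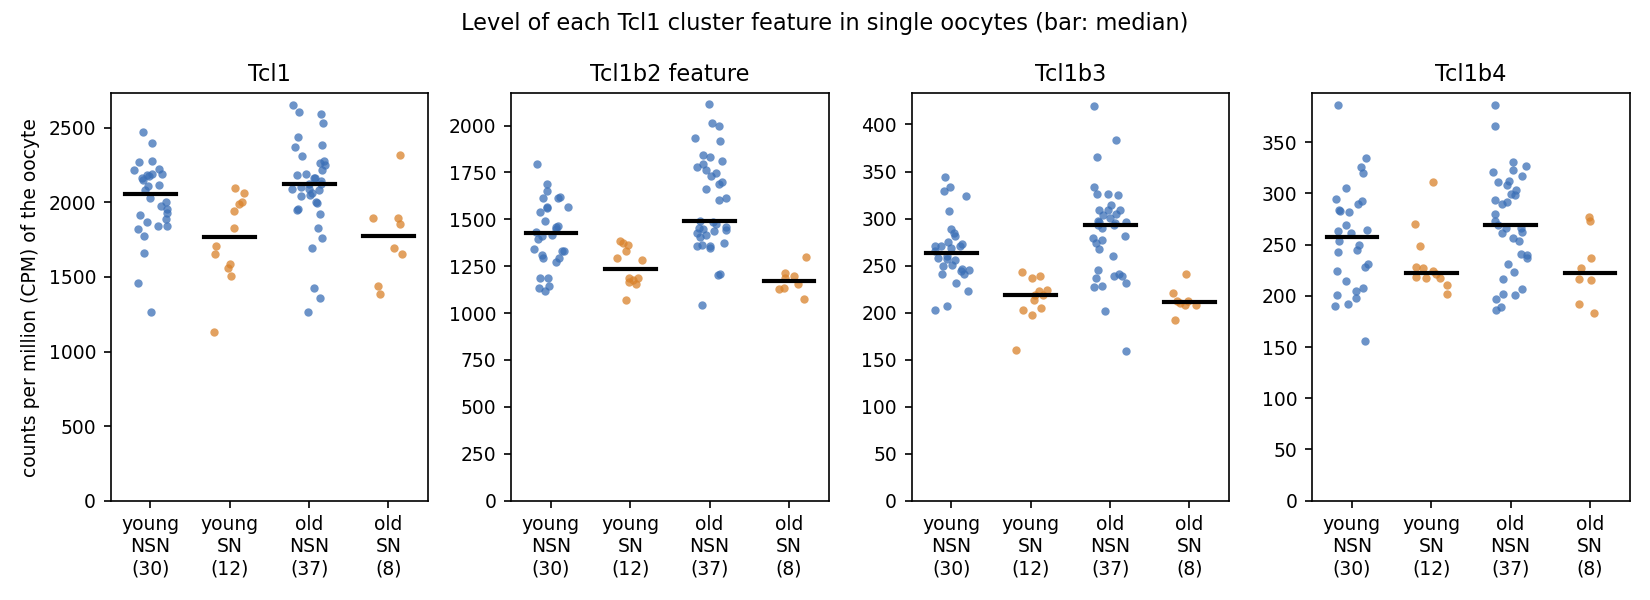
CPM of each cluster feature in every oocyte (points) by age and chromatin configuration, with the number of oocytes in brackets, NSN in blue, SN in orange and the group median as a bar; the axes start at 0. SN oocytes sit low in the panels of the Tcl1b2 feature and Tcl1b3, where all 20 are under the NSN median of their age.

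Age was compared first over all 87 oocytes. With all oocytes pooled, the 4 features were slightly higher in old oocytes, by a log2 ratio of 0.07 for Tcl1 (95% counting interval 0.06 to 0.08), 0.14 for the Tcl1b2 feature (0.13 to 0.15), 0.09 for Tcl1b3 (0.07 to 0.11) and 0.07 for Tcl1b4 (0.05 to 0.10). None was past a 1.2-fold difference, in a background where 2.35% of the 12408 features averaging at least 10 counts per oocyte were that much higher and 5.78% that much lower. Old oocytes lay above the young median in 29 of 45 cases for Tcl1, 33 for the Tcl1b2 feature, and 27 each for Tcl1b3 and Tcl1b4. The distributions overlapped broadly. For Tcl1, the mean was 1941 ± 290.3 CPM in young (SD, n = 42 oocytes) and 2040.3 ± 335 CPM in old oocytes (SD, n = 45), a difference smaller than either SD.

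Within the NSN configuration the age ratios were much the same, at 0.07, 0.15, 0.08 and 0.07 for Tcl1, the Tcl1b2 feature, Tcl1b3 and Tcl1b4. Again 0 of 4 were past 1.2-fold, against 2.63% of features higher and 7.3% lower. Within the SN configuration the ratios were -0.02, -0.07, -0.05 and 0.00 in the same order, with 0 of 4 past the fold and a background of 11.7% higher and 11% lower, and only 12 and 8 oocytes to compare. The oocyte names end in A or carry no letter, a mark that the labels do not explain. For the sum of the 4 features in NSN oocytes, the age ratio was 0.10 over all, -0.0039 among the names with A and 0.19 among those without, so that it did not hold in both sets. Over all configurations, the sum gave 0.04 with A and 0.15 without, and the ratio was below 0 with A for Tcl1 (-0.011) and Tcl1b4 (-0.055). The oocyte numbers fall into 6 runs, each of 1 age, so run and age cannot be told apart.

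Configuration was compared within each age. In young oocytes the SN over NSN log2 ratio was -0.13 for Tcl1 (-0.14 to -0.11), -0.19 for the Tcl1b2 feature (-0.20 to -0.17), -0.26 for Tcl1b3 (-0.30 to -0.23) and -0.14 for Tcl1b4 (-0.18 to -0.11). Of the 4, 1 was past 1.2-fold lower, Tcl1b3, where 7.57% of all features were lower and 14.5% higher by that much. It stood at the edge of the fold, since it was past it in 7 of 12 alternative calculations.

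In old oocytes the ratios were -0.21 for Tcl1 (-0.23 to -0.19), -0.41 for the Tcl1b2 feature (-0.43 to -0.39), -0.39 for Tcl1b3 (-0.44 to -0.35) and -0.21 for Tcl1b4 (-0.25 to -0.16). The Tcl1b2 feature and Tcl1b3 were past 1.2-fold lower, 2 of 4, in a background of 19.7% lower and 23.8% higher, and both were past it in 13 of 13 alternatives. For the Tcl1b2 feature, the mean was 1588 ± 251 CPM in old NSN oocytes (SD, n = 37) and 1174 ± 67.1 CPM in old SN oocytes (SD, n = 8), a difference larger than either SD. The median ratio of the 4 features was -0.17 in young and -0.30 in old oocytes, beside medians of 0.01 and 0.00 over all features. Among the 464 features averaging at least 1000 counts these medians were -0.06 and -0.08. Whether the ratios of the 2 ages differ was not tested. For the sum, the ratio was -0.25 among the names with A and -0.09 among those without in young oocytes, and -0.38 and -0.26 in old ones. The young value without A was smaller in size than the age ratio of 0.15 in the same set.

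Read counts per library are shares, and a fall in CPM cannot be told apart from a rise of other transcripts. The oocyte markers moved in the other direction. Of the 9 measured, 7 were past 1.2-fold higher in young SN oocytes (14.5% of all features) and 9 in old SN oocytes (23.8% of all features), with median log2 ratios of 0.31 and 0.54. Gdf9, an oocyte growth factor, had 0.31 and 0.47, and Zp2, a protein of the egg coat, had 0.35 and 0.75. Their part in the lower cluster values was not tested. With edgeR TMM factors in place of total counts the Tcl1b3 ratio in young oocytes was -0.28.

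**Figure D3:**
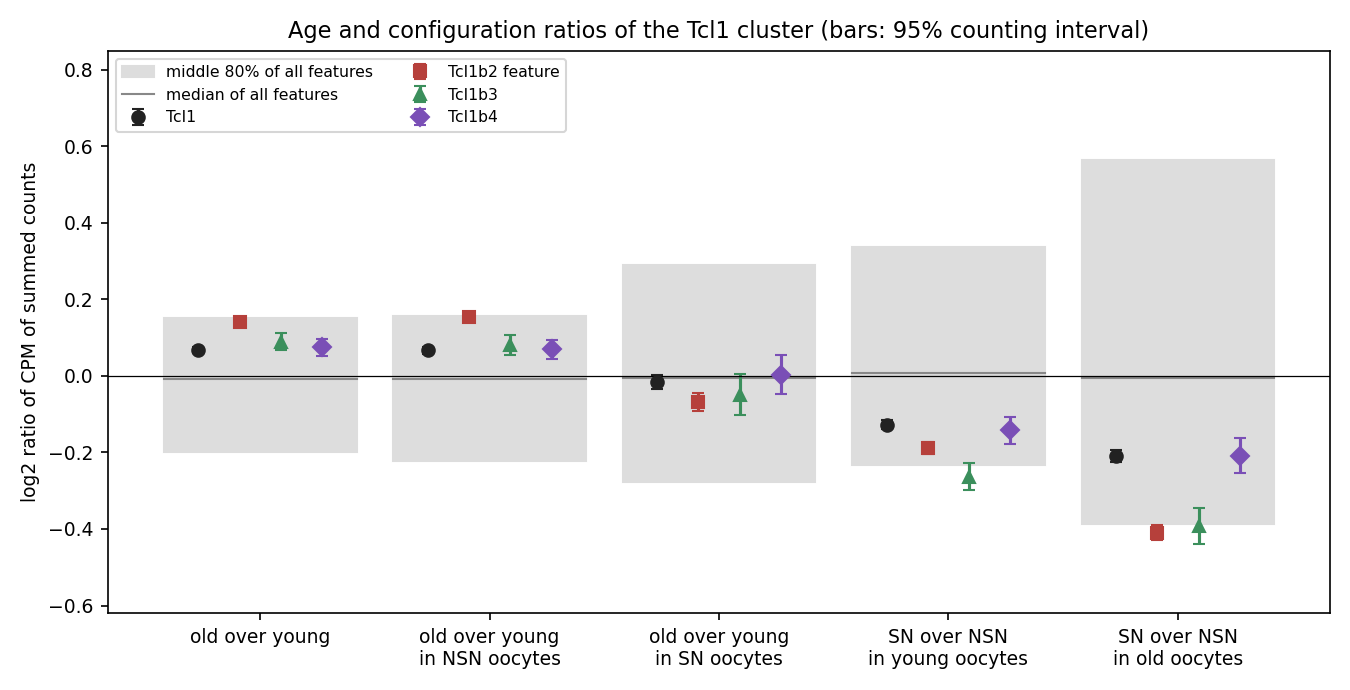
Log2 ratio of CPM of summed counts for each cluster feature (points, with 95% counting intervals) in 5 comparisons, over the middle 80% of 12408 features (grey) and their median (grey line). Points lie slightly above 0 for old over young in all and in NSN oocytes, on either side of 0 for old over young in SN oocytes, and below 0 for SN over NSN, lowest for the Tcl1b2 feature (-0.41) in old oocytes.

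The make-up of the cluster was compared between oocytes, without a background of other genes. Tcl1 gave 50.3% ± 3.4 of the summed counts (SD, n = 87 oocytes), from 40.6% to 58.2%. The Tcl1b2 feature gave 36.5% ± 2.9, Tcl1b3 6.63% ± 0.59 and Tcl1b4 6.50% ± 0.83. The log2 ratio of Tcl1 to the Tcl1b2 feature ran from -0.12 to 0.93. It was lowest in old oocyte 9A, where the Tcl1b2 feature gave 44.2% and Tcl1 40.6%. Between the 4 groups the mean share of Tcl1 ran from 49.5% in old NSN to 52.0% in old SN oocytes, a gap smaller than the SD within either group. The sum itself ranged from 2582 CPM in young oocyte 33A to 5303 CPM in old oocyte 16A.

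Levels of the 4 features were positively correlated over oocytes. After the mean of each of the 4 groups was taken out, Spearman's rho over 87 oocytes was 0.75 between the Tcl1b2 feature and Tcl1b4, 0.71 between it and Tcl1b3, and 0.58 between Tcl1b3 and Tcl1b4. With Tcl1, rho was 0.42 for the Tcl1b2 feature, 0.53 for Tcl1b3 and 0.34 for Tcl1b4. Without that step the values overlapped, at 0.65 to 0.84 among the Tcl1b features and 0.49 to 0.69 with Tcl1. The median rho of a cluster feature with 4909 other named features lay between 0.04 and 0.05, but single features lay far above it, as given below. These points share library depth, with which the 4 features had rho of -0.20 to 0.20, and the Tcl1b2 feature and Tcl1b3 share the identical stretches described above. Within single groups, rho among the Tcl1b features and rho with Tcl1 were 0.75 to 0.83 and 0.40 to 0.50 in 37 old NSN oocytes, 0.51 to 0.73 and 0.39 to 0.66 in 30 young NSN, 0.20 to 0.53 and -0.0070 to 0.46 in 12 young SN, and 0.31 to 0.71 and 0.45 to 0.88 in 8 old SN oocytes, so the values were apart in 1 of the 4 groups.

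The named features most like the cluster sum over the 87 oocytes were Bcl2l10, which encodes an oocyte-rich member of the BCL2 family (rho 0.81), the transcription factor gene Irf1 (0.78), Lpcat3, a phospholipid acyltransferase (0.75), Hmgn1, a nucleosome-binding protein (0.75), and E330034G19Rik (0.74). With Tcl1 alone these 5 had rho of 0.60 to 0.73, above the 0.34 to 0.53 of the Tcl1b features. A high rho with Tcl1 was thus not particular to the cluster. Bcl2l10 had 1946 CPM in young NSN, 1648 in young SN, 2110.2 in old NSN and 1558 in old SN oocytes, and it remained first in each of 3 alternative calculations. Hmgn1 was at rank 55 once every oocyte was thinned to 900000 counts and at rank 29 without centring on the groups, so its place depends on both choices.

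**Figure D4:**
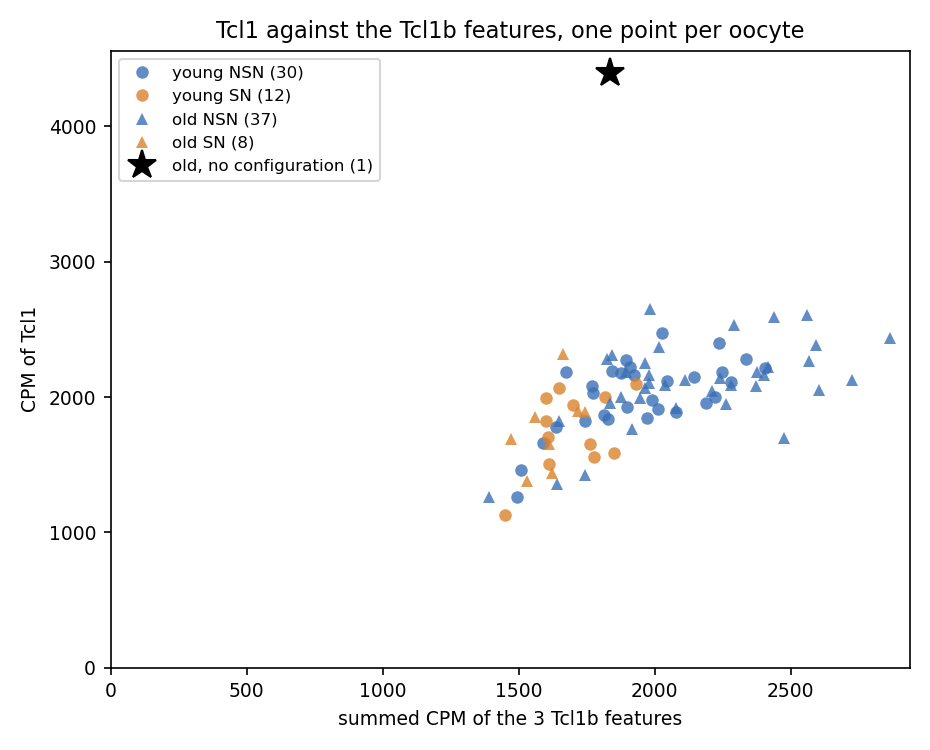
CPM of Tcl1 against the summed CPM of the 3 Tcl1b features in each oocyte, by age (circles young, triangles old) and configuration (blue NSN, orange SN). The star is the old oocyte without a configuration, at 4395 CPM of Tcl1, above the 2654 CPM of the next highest oocyte.

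Spread between oocytes was measured by squaring the coefficient of variation over oocytes and taking counting noise off. For Tcl1 the coefficient was 14.8% in young and 15.7% in old oocytes, for the Tcl1b2 feature 13% and 17.7%, for Tcl1b3 15.2% and 18.8%, and for Tcl1b4 18.4% and 17.7%. The log2 ratio of spread, old over young, was 0.18, 0.91, 0.62 and -0.12 in that order, and 0.41 for the sum, beside a median of 0.46 over 12145 features, of which 73.8% were above 0. For the sum it fell to -0.02 without the young oocytes numbered 17 to 24 and to 0.06 without the old oocytes numbered 25 to 31, and leaving out single oocytes moved it from 0.21 (without old oocyte 27) to 0.66 (without young oocyte 33A). In NSN oocytes alone the ratios were 0.35, 0.54, 0.81 and -0.41. In the 8 old SN oocytes the coefficients were 16.4% for Tcl1, 5.0% for the Tcl1b2 feature, 4.6% for Tcl1b3 and 14% for Tcl1b4, against 16.5%, 9.0%, 9.3% and 12.9% in the 12 young SN oocytes. The medians over 10839 features were 17.1% in old and 18.9% in young SN oocytes.

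The genes of the AKT pathway list, which also holds Mtcp1, were measured too, 14 of 14 genes reported, all averaging at least 10 counts per oocyte. Mtcp1, the relative of Tcl1 on the X chromosome, had 66.7 CPM in young NSN, 51.6 in young SN, 76.3 in old NSN and 52.8 in old SN oocytes. Its SN over NSN log2 ratios of -0.37 and -0.53 had the sign of the cluster's, and its old over young ratio was 0.21. By age, 0 of 14 genes were past 1.2-fold over all oocytes, against 2.35% of features higher and 5.78% lower. In NSN oocytes 1 of 14 was lower (7.3% of all features), the AKT phosphatase gene Phlpp1 (-0.31), which averaged only 13.5 counts per oocyte. In SN oocytes 2 of 14 were higher (11.7% of all features), Phlpp1 (0.70) and Gsk3b, which encodes a kinase that AKT inhibits (0.56).

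By configuration, 2 of the 14 pathway genes were higher and 1, Mtcp1, lower in young SN oocytes, where 14.5% of all features were higher and 7.57% lower. In old ones 6 were higher and 2 lower, where 23.8% of all features were higher and 19.7% lower. The kinase gene Mtor (0.42 in young, 0.52 in old oocytes) and Mlst8, a subunit of the mTOR complexes (0.49 and 0.66), were higher at both ages. Pdpk1, which encodes a kinase that phosphorylates AKT (0.42), Phlpp1 (0.83), Phlpp2 (0.27) and Gsk3b (0.58) were past the fold in old oocytes. Besides Mtcp1, Gsk3a was lower in old SN oocytes (-0.34). The median ratio of the list was 0.09 in young and 0.17 in old oocytes, and the AKT genes themselves did not pass the fold in any comparison.

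Of 11 genes that flank the cluster on chromosome 12, 6 averaged at least 10 counts per oocyte, and 0 of 6 were past 1.2-fold by age in any of the 3 comparisons, whose background shares were 2.35% to 11.7% higher and 5.78% to 11% lower. By configuration, 1 was higher and 1 lower in young oocytes (14.5% and 7.57% of all features), and 2 were higher and 2 lower in old ones (23.8% and 19.7%). Syne3, which encodes a nuclear envelope protein, was higher in SN oocytes at both ages (0.29 and 0.57) and Papola, a poly(A) polymerase gene, was lower at both (-0.27 and -0.26). Atg2b, an autophagy gene, was past the fold higher in old oocytes (0.46) and had 0.17 in young ones. Glrx5, a gene of iron-sulphur cluster assembly, was past it lower in old oocytes (-0.48) and had -0.20 in young ones. Whether the ages differ was not tested. Dicer1, the gene of the enzyme that makes small RNAs, had 0.01 and 0.03.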

How the data were processed

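The authors trimmed 100-base single-end Smart-seq2 reads with Trim Galore, aligned them to GRCm38 with HiSat2 and counted primary alignments over an oocyte transcriptome assembly. They deposited raw counts per feature and oocyte, without normalisation; the counting program and its strand setting are not given in the sources used here, and reads carry no molecular identifiers. The methylation data were not analysed here. The table holds 88 oocytes; totals equalled the study's in 87, and 87 have a predicted configuration.

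Genes, lists and comparisons were chosen with earlier results of these data known. Features were named from the part of the study's gene list in hand (1998 names) or from GENCODE M21 by an overlap of spans of at least 0.3 of their union (15610 names). Named genes are the 6 cluster genes, fixed pathway, neighbour and marker lists, and the 5 named features with a mean count of at least 100 most like the cluster sum. Of the pathway list, 1 gene is not reported here and was left out of its counts.

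Counts were summed per group and scaled to CPM. Log2 ratios have exact 95% intervals from the binomial split of the 2 sums. No test was run, since each age group is 1 sample. Spread used median of ratios size factors, and correlations used log2(CPM + 1). A log2 value was taken as moved at a change above 0.1. Alternatives covered scaling, depth (thinning to 900000 counts), oocytes included, name suffix, runs of oocyte numbers and estimators. The omission of single oocytes for spread, of old oocyte 15 (whose total differed from the study's) and the exon length of Tcl1b2 alone were added after seeing the data. The calculations were tested on simulated data. Python 3.11.15, numpy 2.4.6, scipy 1.17.1, pandas 2.3.3 and edgeR 4.0.16 in R 4.3.3 were used. Promoter sequences and starts are RefSeq's for GRCm38.p6, found for 6 of 6 genes.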

Additional observations from a re-analysis of the deposited data

Results flagged for a closer look

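In the old oocyte without a predicted configuration (48A), which the comparisons leave out, Tcl1 stood at 4395 CPM (15771 of 3588332 counts), above all 45 other old oocytes (1265 to 2654 CPM) and above the highest young oocyte (2475 CPM). The summed level of the 4 features was 6230 CPM, against at most 5303 CPM in the other old oocytes. The Tcl1b2 feature (1325 CPM), Tcl1b3 (281 CPM) and Tcl1b4 (229 CPM) lay within the range of the other old oocytes, so the sum was high through Tcl1. With this oocyte included, the old over young log2 ratio was 0.12 for Tcl1 and for the sum, and that of the spread of Tcl1 rose from 0.18 to 1.08. This is 1 library, with no replicate. The paper excluded 1 oocyte, which it does not name, as an outlier in a distance matrix. Oocyte 48A is taken here to be that one, so its Tcl1 value comes from a library that the authors set aside.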

How the results depend on the processing

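For the sum of the 4 features, the ratios moved by more than 0.1 in 2 of 78 recalculations: to -0.0039 for old over young in NSN oocytes with names ending in A, and to -0.41 for SN over NSN in old oocytes without oocytes 41 to 48. Without single oocytes, the sum's ratio was 0.08 to 0.11 for age, 0.08 to 0.12 in NSN and -0.08 to -0.01 in SN oocytes, and -0.18 to -0.14 and -0.33 to -0.27 for configuration in young and old oocytes. For single features 14 of 312 recalculations moved. SN over NSN kept its sign for all 4 features; old over young in NSN oocytes turned to -0.04, -0.01 and -0.14 for Tcl1, Tcl1b3 and Tcl1b4 among names with A. Spread was the least stable measure: the cause was not tested. For the sum, main value 0.41, it was 0.63 with all 88 oocytes, 0.54 with CPM, 0.0165 with the median absolute deviation, 0.29 in NSN oocytes, 0.27 with suffix A and 0.78 without it, and 0.71, -0.019, 0.056, 0.63, 0.61 and 0.56 without oocytes 1 to 7, 17 to 24, 25 to 31, 33 to 39, 41 to 48 and 9 to 16; single oocytes gave 0.21 to 0.66. The spread ratio of Tcl1 changed sign without oocytes 17 to 24 (-0.34), without 25 to 31 (-0.19) and without 1 oocyte (-0.033 to 0.50). That of Tcl1b4 changed sign with CPM (0.010), the median absolute deviation (0.51), no suffix (0.90), without oocytes 1 to 7 (0.59), 41 to 48 (0.027) or 9 to 16 (0.081) and without 1 oocyte (-0.28 to 0.19). Per kb of exon, the shares of Tcl1, the Tcl1b2 feature, Tcl1b3 and Tcl1b4 were 55.8%, 22.3%, 13% and 8.89%. Without centring on groups, the median rho was 0.67 between features and 0.85 for the 5 most alike, against 0.55 and 0.75. Without old oocyte 15, whose total differed from the study's, the sum's SN over NSN ratio in old oocytes was -0.29. Summing all same-strand features changed nothing, since each gene had 1. No paired analysis was possible because the results come from no test and oocyte numbers pair nothing.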
